A study of Mus musculus with 10 samples.

Results

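The p53 pathway and the apoptosis machinery were followed here as 41 genes of the 55573 in the count table, in projection neurons of the mouse cortex on postnatal day 3. The genes were taken by name: p53 and its inhibitors (3), p53 target genes (11), the pore-forming (3), BH3-only (8) and survival (3) members of the BCL2 family, caspases with their activators (6), inhibitors of apoptosis (3), and death receptors with their adaptors (4). RNA was sequenced from cortical cells sorted for the fluorescent protein EYFP, 1 preparation per library, with 5 Ctrl and 5 Cdk7_KO libraries. Cdk7_KO pups were of the genotype NexCre/+ with Cdk7lox/lox, and Ctrl pups carried Cdk7+/+ beside the same NexCre/+. Every pup of both groups also carried the R26EYFP/+ reporter, so the Ctrl cells express Cre and EYFP too. NexCre is a Cre driver at the Neurod6 locus, active in young excitatory neurons of the cortex, and both the deletion and the label used for sorting depend on it. Cdk7 is a kinase that activates other cyclin-dependent kinases and, within TFIIH, acts on RNA polymerase II. The comparison asks how RNA levels differ between the 2 genotypes.

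p53 is a transcription factor that is kept low by the ubiquitin ligase Mdm2 and its partner Mdm4, and that on DNA damage or transcription stress switches on genes for cell cycle arrest, repair and death. In the mitochondrial route of apoptosis, BH3-only proteins release Bax and Bak1 from the survival proteins Bcl2, Bcl2l1 and Mcl1. The pores they form let out cytochrome c, which joins Apaf1 and Casp9 in the apoptosome. In the death receptor route, Fas and related receptors recruit Fadd and Casp8. The early postnatal cortex normally loses part of its neurons by apoptosis, and the mitochondrial route is known to set how many.

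p53 binds a response element made of a pair of 10-base sequences, and the promoters of these genes were searched for it because the list was drawn up around p53. RefSeq promoter windows (GRCm38.p6, from 250 bases before to 50 after each start) were at hand for 34 of the 41 genes. An exact match to the 10-base p53 consensus, which reads the same on both strands, lay in the windows of 10 of the 34 genes (29.4%), against 9.55% of 27025 genes. A pair of such matches, at most 13 bases apart with at most 1 mismatch in all outside the central C and G, lay in 2 of the 34 (5.88%), against 0.718% of all genes. Among the p53 target genes, 5 of 7 with a window held the 10-base match and 2 held the pair. A gene counted if any of its windows held a match, and the number of windows per gene was not evened out. The genes were also chosen around p53, so these shares are descriptions only. The pairs of Cdkn1a and Ccng1, each with 1 mismatch, are shown first. They are followed by single exact matches of Sesn1, Polk, Mdm2 and Bax. Single exact matches also lay in windows of Aen, Trp53, Bmf and Birc2, which are not shown. Capitals mark the 10-base sequences, with the mismatched base of each pair included.
Cdkn1a, chr17:29090908-29090967, plus strand: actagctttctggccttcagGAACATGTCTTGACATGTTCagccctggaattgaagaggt
Ccng1, chr11:40755442-40755501, minus strand: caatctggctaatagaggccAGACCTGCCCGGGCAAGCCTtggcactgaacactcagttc
Sesn1, chr10:41887246-41887295, plus strand: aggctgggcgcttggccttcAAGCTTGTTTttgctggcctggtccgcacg
Polk, chr13:96519389-96519437, minus strand: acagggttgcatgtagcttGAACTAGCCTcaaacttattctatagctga
Mdm2, chr10:117710915-117710964, minus strand: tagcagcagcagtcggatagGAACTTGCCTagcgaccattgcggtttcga
Bax, chr7:45467070-45467119, minus strand: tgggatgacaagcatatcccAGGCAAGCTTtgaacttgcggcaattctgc
The pair in Cdkn1a begins 51 bases before the start of that window's transcript, and the pair in Ccng1 begins 195 bases before. Another window of Cdkn1a (chr17:29093519-29093818) held no match, and Sesn1 and Polk also had a window without one. A match describes letters only, and whether p53 was bound there was not measured.

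Total counts per library lay between 23497621 and 31233466. Levels are given as counts scaled to the library total (CPM), and levels of different genes are compared only as CPM per kb of exon. Cdk7 itself stood at 13.2, 10.1, 17.4, 20.3 and 17.2 CPM in Ctrl replicates 1, 3, 4, 5 and 6, and at 7.07, 3.63, 4.38, 5.13 and 5.6 CPM in Cdk7_KO replicates 1 to 5. The groups did not overlap, and the log2 fold change was -1.54 (SE 0.22, edgeR adjusted p = 0.161, DESeq2 adjusted p = 2.25e-08). By Xist and Ddx3y, a Y-linked gene, the libraries with replicate numbers 1 to 3 were male (2 Ctrl, 3 Cdk7_KO) and those with 4 to 6 female (3 Ctrl, 2 Cdk7_KO). Sex and any difference between those sets of preparations cannot be told apart. All 9 projection neuron markers were detected, with summed levels of 1581 to 2349 CPM in Ctrl and 1866 to 2491 CPM in Cdk7_KO. Markers of other cells were present in every library, with summed levels, Ctrl against Cdk7_KO, of 780 to 1498 against 195 to 875 CPM for radial glia and astrocytes, 102 to 341 against 52.9 to 165 CPM for microglia and macrophages, 189 to 1193 against 48.6 to 265 CPM for endothelial and mural cells, and 91.0 to 149 against 19.98 to 82.0 CPM for dividing cells. In bulk RNA, fewer cells of a type and less RNA per cell cannot be told apart. Cdk7_KO replicate 4 had the lowest sum of the 10 libraries for each of these 4 lists.

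Of the 41 genes, 39 had enough counts to be tested between the genotypes. Bik, a BH3-only gene, and the death receptor Fas were left out, with 27 and 29 counts over all 10 libraries together. edgeR's quasi-likelihood test called 0 of the 39 at an adjusted p under 0.05, as it called 0% of all 15578 genes tested. A count of 0 passing in any group of genes below is therefore no sign that the group is unchanged. At an unadjusted p under 0.05, 3 were lower in Cdk7_KO, Casp8, Birc3 and Tnfrsf10b, against 10.5% of all genes, and 0 were higher, against 4.9%. A share of 3 in 39 lies near the background. The Cdk7_KO libraries lay wholly below the Ctrl libraries for 1 gene, Tnfrsf10b, against 2.41% of all genes, and wholly above for 0, against 0.61%. DESeq2 called 1 of the 39 lower, Casp8, where it called 3.32% of 16167 genes lower, and it called 0 higher, against 0.26%. The median log2 fold change of the 39 was -0.01, beside 0.01 over all genes tested. Of the 39 values, 20 lay below 0 and 19 above, where 47.5% of all genes lay below 0. For 27 of the 39 (69.2%), the whole 95% interval lay within a 1.5-fold change either way, against 58.6% of all genes. The 12 wider intervals, seen in the plot of differences, included genes of low level, such as Birc3, and genes that varied between libraries of a group, such as Cdkn1a and Bcl2l11.

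**Figure D1:**
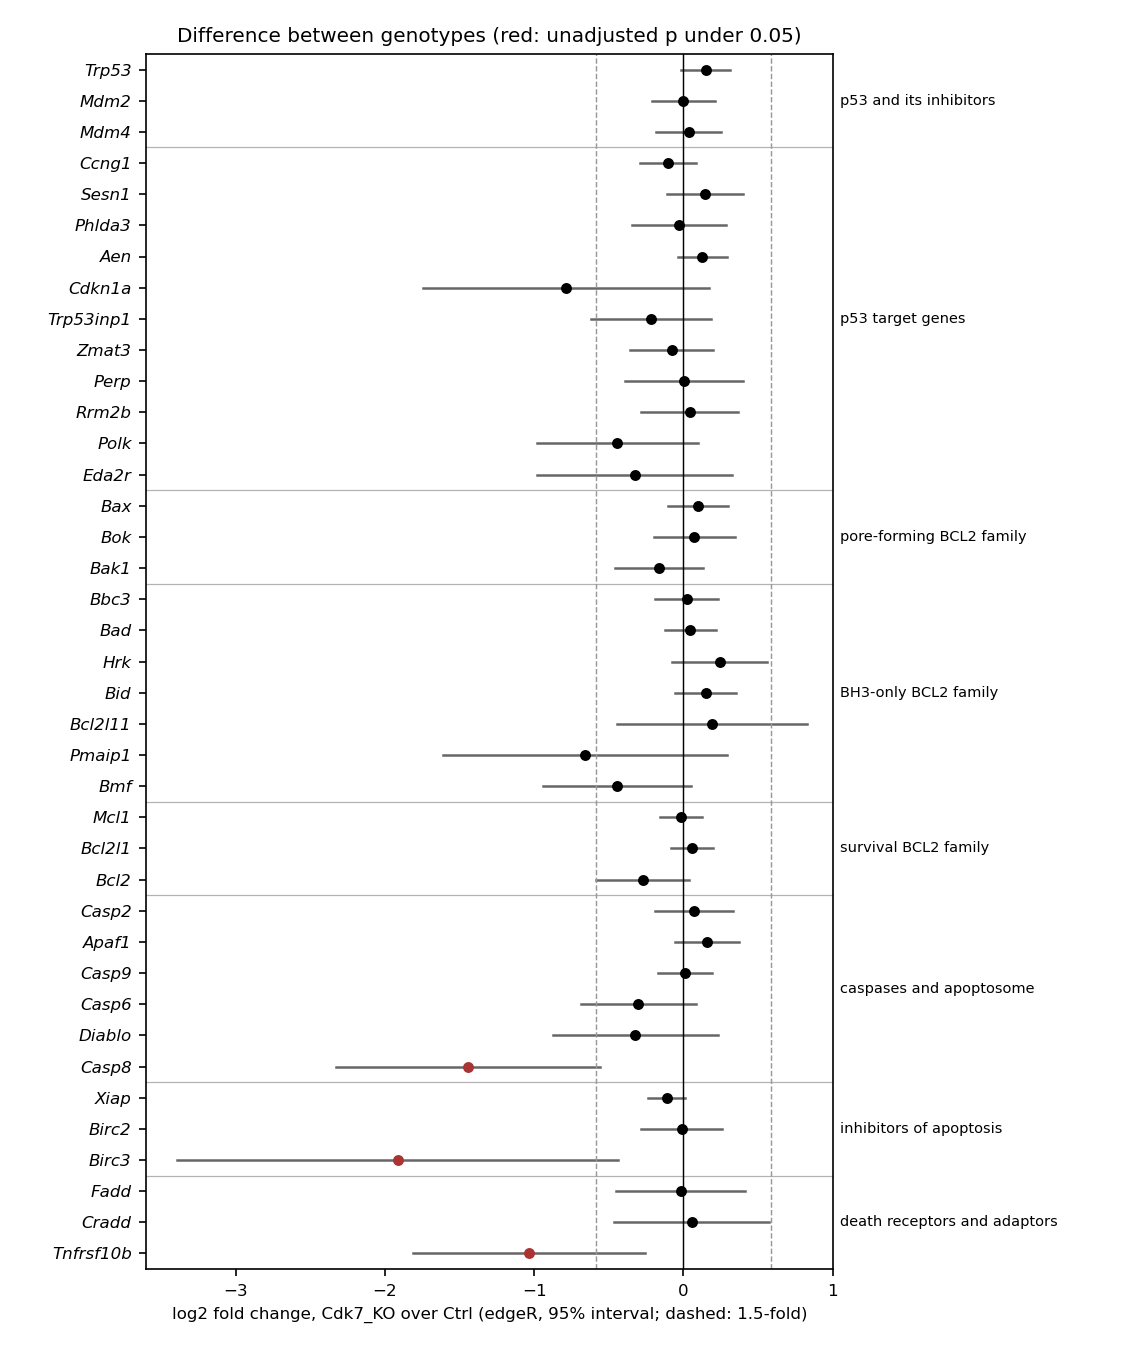
Log2 fold change of Cdk7_KO over Ctrl (x axis) for the 39 genes tested, grouped by role; points are edgeR estimates from 5 libraries a group, bars their 95% intervals, dashed lines a 1.5-fold change, and red points have an unadjusted p under 0.05. Most points lie close to 0, and Casp8 (-1.45), Birc3 (-1.91) and Tnfrsf10b (-1.03) lie to the left.

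Levels of the genes spanned a wide range in both genotypes. Mcl1, a short-lived survival protein of the BCL2 family, had the highest level of the 41 in each of the 10 libraries, with a mean of 43.6 CPM per kb. The pore-forming Bax (32.0 CPM per kb) and Bok (30.6) came next and took rank 2 or 3 in every library, in an order that differed between libraries. Bcl2l1 (23.7), Bbc3 (19.6), Bad (17.7) and Trp53 (17.6) followed, and the ranks of these neighbours also crossed between libraries. At the low end stood Eda2r (0.343 CPM per kb), Tnfrsf10b (0.249), Birc3 (0.228), Bik (0.0628) and Fas (0.0546). Fas, Tnfrsf10b, Casp8 and Fadd of the death receptor route all had means over the 10 libraries at or below 1.03 CPM per kb. In the plot of levels, single libraries reached 2.10 CPM per kb for Casp8 (Ctrl replicate 1) and 1.30 for Fadd (Ctrl replicate 5).

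**Figure D2:**
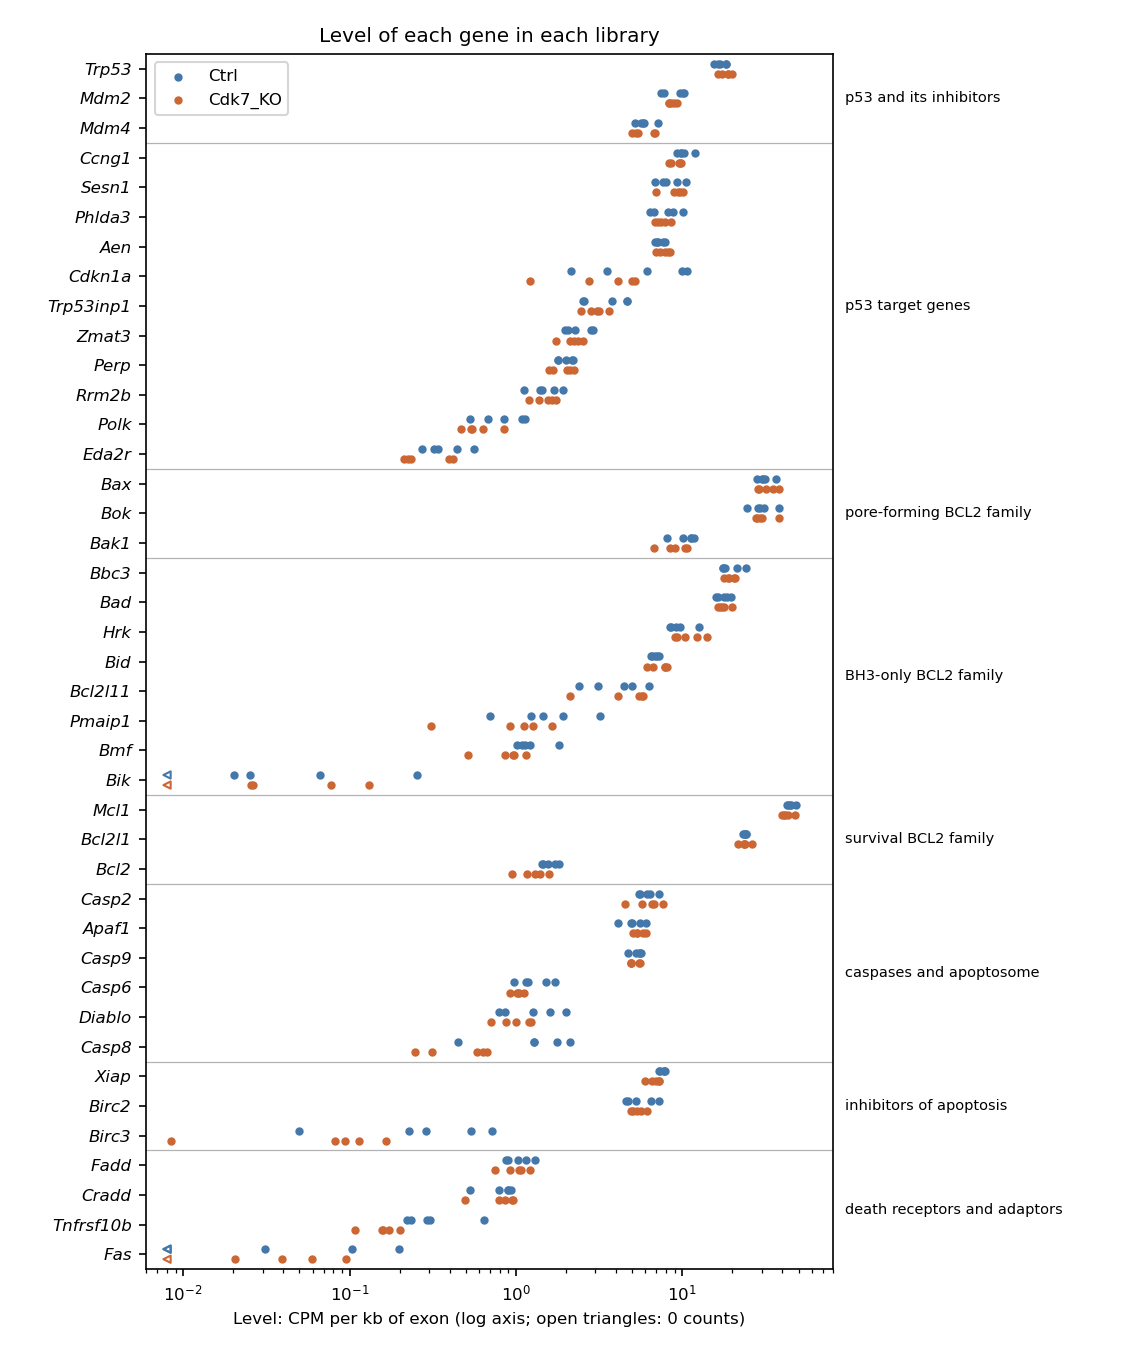
Level of each of the 41 genes in each library in CPM per kb of exon (log axis), grouped by role, with blue points for the 5 Ctrl and orange points for the 5 Cdk7_KO libraries and open triangles for 0 counts. Points of both genotypes overlap for nearly every gene, from Mcl1 at a mean of 43.6 to Fas at 0.0546 CPM per kb.

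Trp53, the gene for p53, and the genes for its inhibitors Mdm2 and Mdm4 did not pass the test, with log2 fold changes of 0.15 or less. Trp53 (chromosome 11, 69580359 to 69591873 in GRCm38) stood at 66.1, 63.2, 73.7, 73.8 and 68.0 CPM in the Ctrl libraries and at 76.1, 75.7, 66.1, 80.4 and 70.2 CPM in the Cdk7_KO libraries, in replicate order. Cdk7_KO replicates 1, 2 and 4 lay above every Ctrl library, and replicates 3 and 5 lay within the Ctrl range. The log2 fold change of Trp53 was 0.15 (SE 0.08, 95% interval -0.01 to 0.31, edgeR adjusted p = 0.362). Mdm4 gave 86.5, 76.6, 106, 86.8 and 83.1 CPM in Ctrl and 73.5, 100, 101, 78.3 and 80.6 CPM in Cdk7_KO. Its groups covered nearly the same range, and its log2 fold change was 0.04 (edgeR adjusted p = 0.909). Mdm2, itself a classical p53 target, averaged 45.9 ± 6.7 CPM (SD, n = 5) in Ctrl and 44.2 ± 2.1 CPM (SD, n = 5) in Cdk7_KO, with a 95% interval for the log2 fold change of -0.21 to 0.21.

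Of the 11 p53 target genes, all were tested and 0 passed, as 0% of all genes passed. Log2 fold changes were below 0 for 7 of the 11, against 47.5% of all genes, with a median of -0.08. Cdkn1a encodes p21, the inhibitor of cyclin-dependent kinases that carries out p53's cell cycle arrest. Cdkn1a (chromosome 17, 29090976 to 29100727) stood at 37.8, 35.2, 21.9, 12.6 and 7.66 CPM in Ctrl and at 14.6, 17.7, 18.4, 4.33 and 9.79 CPM in Cdk7_KO. Both groups spread widely and overlapped, and within each group every male library (replicates 1 to 3) lay above every female one. Its log2 fold change of -0.79 had an SE of 0.44 (95% interval -1.75 to 0.17, edgeR adjusted p = 0.419). With sex as a factor in the model it was -0.997 (SE 0.26, edgeR adjusted p = 0.0465).

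Ccng1, cyclin G1, a p53 target of high level, gave 32.7, 42.1, 35.8, 34.5 and 34.4 CPM in Ctrl and 33.5, 30.2, 34.3, 29.1 and 34.1 CPM in Cdk7_KO. Only Ctrl replicate 3 stood clear of the Cdk7_KO values by much, and its log2 fold change was -0.10 (SE 0.09, edgeR adjusted p = 0.607). Polk encodes a DNA polymerase that copies past damaged bases. Its values were 6.30, 4.74, 6.01, 3.78 and 2.92 CPM in Ctrl and 2.98, 4.69, 3.53, 2.61 and 3.04 CPM in Cdk7_KO. Polk was high in 3 Ctrl libraries and 1 Cdk7_KO library, and the rest overlapped (log2 fold change -0.44, SE 0.25, edgeR adjusted p = 0.419).

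The remaining p53 targets had 95% intervals that spanned 0. Intervals lay within a 1.5-fold change for Sesn1, a sestrin that restrains mTORC1 (log2 fold change 0.14), Zmat3, an RNA-binding protein (-0.08), Phlda3, an inhibitor of Akt (-0.03), Perp, a membrane protein (mean 3.82 CPM, interval -0.39 to 0.40), Aen, a nuclease of apoptosis (0.13), and Rrm2b, a subunit of ribonucleotide reductase (0.04). Wider intervals were found for Eda2r, a receptor of the tumour necrosis factor family (-0.98 to 0.33), and Trp53inp1, a p53-induced nuclear protein (-0.62 to 0.19). The single values of Trp53inp1 ran from 16.5 to 30.3 CPM in Ctrl and from 15.9 to 23.3 CPM in Cdk7_KO.

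The 3 pore-forming genes were all well expressed, and 0 of 3 passed, as 0% of all genes passed. Bax, the effector that opens the mitochondrial outer membrane, stood at 57.9, 49.5, 48.5, 47.3 and 44.6 CPM in Ctrl and at 55.4, 50.4, 60.3, 44.7 and 45.4 CPM in Cdk7_KO. The male libraries were the higher ones in both groups, and the groups overlapped almost fully (log2 fold change 0.10, SE 0.09, edgeR adjusted p = 0.658). Bak1, its partner with the same task, gave 28.3, 27.3, 24.4, 27.3 and 19.6 CPM in Ctrl and 21.8, 25.1, 25.8, 20.2 and 16.3 CPM in Cdk7_KO. Bak1 overlapped between groups too, with the lowest value in Cdk7_KO replicate 5 (log2 fold change -0.17, SE 0.14, edgeR adjusted p = 0.60). Per kb of exon, the level of Bax exceeded that of Bak1 2.65 to 3.48 times in Ctrl and 3.07 to 4.24 times in Cdk7_KO libraries. Bok, a relative of both, averaged 55.8 ± 9.0 CPM (SD, n = 5) in Ctrl and 56.7 ± 8.0 CPM (SD, n = 5) in Cdk7_KO.

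BH3-only genes start the mitochondrial route, and 7 of the 8 were tested. Of these, 0 passed, as 0% of all genes passed. Log2 fold changes lay below 0 for 2 and above 0 for 5, where 47.5% of all genes lay below 0. Bbc3 encodes PUMA, a p53 target that is central to p53-dependent death of neurons. Bbc3 (chromosome 7, 16308393 to 16318205) gave 45.2, 51.6, 38.6, 37.3 and 37.6 CPM in Ctrl and 40.0, 44.1, 43.6, 38.1 and 40.5 CPM in Cdk7_KO. All 5 Cdk7_KO values fell inside the Ctrl range, with a log2 fold change of 0.02 (95% interval -0.19 to 0.24, edgeR adjusted p = 0.943). Hrk, a BH3-only gene known from neurons deprived of growth factors, gave 48.3, 71.8, 55.2, 51.8 and 48.2 CPM in Ctrl and 52.9, 69.8, 51.5, 79.9 and 59.0 CPM in Cdk7_KO. The highest of these, in Cdk7_KO replicate 4, lay above all Ctrl values, and the others overlapped (log2 fold change 0.24, SE 0.15, edgeR adjusted p = 0.461).

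Bmf, a BH3-only protein tied to the cytoskeleton, stood at 5.36, 5.73, 5.97, 9.51 and 6.40 CPM in Ctrl and at 4.50, 5.08, 5.11, 2.69 and 6.05 CPM in Cdk7_KO. Only Cdk7_KO replicate 5 reached into the Ctrl range, and Ctrl replicate 5 stood high (log2 fold change -0.44, SE 0.23, edgeR adjusted p = 0.381). Pmaip1, the p53 target also called NOXA, averaged 4.65 ± 2.6 CPM (SD, n = 5) in Ctrl and 2.87 ± 1.3 CPM (SD, n = 5) in Cdk7_KO, with single libraries between 0.841 and 8.77 CPM. Bcl2l11, which encodes BIM, varied from 19.2 to 50.5 CPM in Ctrl and from 17.02 to 46.5 CPM in Cdk7_KO. Bid, which Casp8 cleaves, and Bad, which growth factor signalling restrains, had log2 fold changes of 0.15 and 0.05, with intervals inside a 1.5-fold change.

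Of the 3 survival genes of the BCL2 family, 0 passed, as 0% of all genes passed. Mcl1 gave 164, 148, 152, 145 and 153 CPM in Ctrl and 164, 135, 148, 141 and 141 CPM in Cdk7_KO. Cdk7_KO replicates 2, 4 and 5 lay below the lowest Ctrl library, the upper ends of the groups met, and the log2 fold change was -0.01 (95% interval -0.16 to 0.13, edgeR adjusted p = 0.944). Bcl2l1, which encodes the neuronal survival protein BCL-XL, stood at 110, 107, 110, 109 and 106 CPM in Ctrl and at 110, 109, 107, 120 and 98.6 CPM in Cdk7_KO. Its Ctrl libraries were nearly alike, and the Cdk7_KO libraries lay on both sides of them (log2 fold change 0.06, SE 0.06, edgeR adjusted p = 0.722). Bcl2 itself, the founding member, gave 14.2, 16.6, 13.4, 15.7 and 13.1 CPM in Ctrl and 12.7, 10.6, 11.96, 8.66 and 14.5 CPM in Cdk7_KO. For Bcl2, 4 of the 5 Cdk7_KO libraries lay below the lowest Ctrl library and replicate 5 lay among them (log2 fold change -0.27, SE 0.14, edgeR adjusted p = 0.394). The level of Bcl2l1 per kb of exon was 12.8 to 16.4 times that of Bcl2 in Ctrl and 13.6 to 27.7 times in Cdk7_KO libraries.

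Among the caspases and their activators, Casp8 stood out and the other 5 did not pass in edgeR or DESeq2. Casp8 is the initiator caspase of the death receptor route, which also restrains necroptosis. Casp8 (chromosome 1, 58795374 to 58847503) gave 6.09, 5.09, 1.29, 3.71 and 3.70 CPM in Ctrl and 1.84, 1.68, 1.95, 0.715 and 0.905 CPM in Cdk7_KO. Ctrl replicate 4 fell among the Cdk7_KO libraries, and the other 4 Ctrl libraries lay above all of them. The means were 3.98 ± 1.8 CPM (SD, n = 5) in Ctrl and 1.42 ± 0.57 CPM (SD, n = 5) in Cdk7_KO, from 17 to 159 counts per library. Its log2 fold change of -1.45 (SE 0.41; interval from -2.33 to -0.56) did not pass in edgeR's test (adjusted p = 0.167), while DESeq2 gave an adjusted p of 0.0168.

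Casp2, a caspase linked to p53 through the PIDDosome, gave 43.6, 39.0, 51.1, 45.3 and 39.1 CPM in Ctrl and 46.4, 53.7, 47.9, 40.5 and 32.0 CPM in Cdk7_KO. The Cdk7_KO libraries held both the highest and the lowest value (log2 fold change 0.07, SE 0.12, edgeR adjusted p = 0.835). Casp6, an executioner caspase also known from axon degeneration, stood at 9.62, 8.42, 5.45, 6.57 and 6.44 CPM in Ctrl and at 5.68, 6.21, 5.71, 5.17 and 5.84 CPM in Cdk7_KO. The high values of Casp6 were those of the 2 male Ctrl libraries, and Ctrl replicate 4 lay among the Cdk7_KO libraries (log2 fold change -0.30, SE 0.18, edgeR adjusted p = 0.445). Casp9 and Apaf1, the caspase and scaffold of the apoptosome, had log2 fold changes of 0.01 and 0.16, both with intervals inside a 1.5-fold change. Diablo, which neutralises inhibitors of apoptosis once it leaves mitochondria, ranged from 4.85 to 12.4 CPM in Ctrl and from 4.37 to 7.62 CPM in Cdk7_KO.

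The inhibitors of apoptosis included the gene with the lowest log2 fold change of the 39. Birc3, which encodes cIAP2, a ubiquitin ligase of tumour necrosis factor signalling, gave 2.68, 3.59, 1.45, 0.247 and 1.15 CPM in Ctrl and 0.831, 0.469, 0.567, 0.0421 and 0.411 CPM in Cdk7_KO. Ctrl replicate 5 lay among the Cdk7_KO libraries and the other 4 Ctrl libraries lay above them. Counts of Birc3 (chromosome 9, 7848699 to 7873186) were few, from 1 to 112 per library, and the log2 fold change of -1.91 had an SE of 0.68 (95% interval -3.39 to -0.44, edgeR adjusted p = 0.211, DESeq2 adjusted p = 0.0655). Without Ctrl replicate 3 it was -1.51 (edgeR unadjusted p = 0.0526). Xiap, the inhibitor that blocks executioner caspases directly, stood at 69.8, 68.5, 75.0, 73.9 and 73.1 CPM in Ctrl and at 68.7, 65.6, 68.2, 56.9 and 62.6 CPM in Cdk7_KO. Its values overlapped only through Cdk7_KO replicate 1 and Ctrl replicate 3, and the difference was small (log2 fold change -0.11, SE 0.06, edgeR adjusted p = 0.383). Birc2, the neighbour of Birc3 that encodes cIAP1, averaged 26.0 ± 5.2 CPM (SD, n = 5) in Ctrl and 24.8 ± 2.2 CPM (SD, n = 5) in Cdk7_KO.

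The 2 death receptors among the 41 genes, Tnfrsf10b and Fas, had low levels, and the adaptors Fadd and Cradd had means of 1.03 and 0.810 CPM per kb. Tnfrsf10b, the mouse receptor for the ligand TRAIL and a p53 target in other tissues, gave 3.49, 1.28, 1.65, 1.2 and 1.59 CPM in Ctrl and 0.935, 0.860, 1.09, 0.589 and 0.864 CPM in Cdk7_KO. All Cdk7_KO libraries lay below all Ctrl libraries, and Ctrl replicate 1 stood far above the other 4. The log2 fold change of Tnfrsf10b (chromosome 14, 69767472 to 69784411) was -1.03 (SE 0.36, 95% interval -1.81 to -0.26, edgeR adjusted p = 0.204, DESeq2 adjusted p = 0.115), from 14 to 82 counts per library. Without Ctrl replicate 1 it was -0.66 (edgeR adjusted p = 0.407). Fas never exceeded 0.407 CPM and had no count in 3 libraries, so no difference could be detected at this depth.

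Fadd, the adaptor between death receptors and Casp8, gave 4.04, 3.43, 4.52, 5.09 and 3.52 CPM in Ctrl and 4.05, 4.77, 2.92, 4.21 and 3.62 CPM in Cdk7_KO. Its groups overlapped throughout (log2 fold change -0.02, SE 0.20, edgeR adjusted p = 0.981). Cradd, an adaptor for Casp2, gave 2.51, 4.26, 4.24, 3.78 and 4.48 CPM in Ctrl and 3.78, 2.34, 4.09, 4.58 and 4.48 CPM in Cdk7_KO. One low library in each group stood apart from the rest (log2 fold change 0.06, SE 0.24, edgeR adjusted p = 0.941).

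Casp8, Birc3, Tnfrsf10b and Cdkn1a are also expressed by glia, vessels or immune cells, so the markers of those cells are set beside them. All 9 radial glia and astrocyte markers, all 10 of microglia and macrophages, all 9 of endothelial and mural cells and all 7 of dividing cells had log2 fold changes below 0, with list medians of -1.09, -0.85, -1.63 and -1.09. The same held for all tested markers of interneurons (8), the oligodendrocyte lineage (7), erythroid cells (5) and fibroblasts and meninges (3), while all 9 projection neuron markers lay above 0. edgeR called 0 of these markers at an adjusted p under 0.05, as it called 0% of all genes tested. DESeq2 called 2 radial glia and astrocyte, 4 erythroid and 5 dividing cell markers lower, where it called 3.32% of all genes lower. At an edgeR unadjusted p under 0.05, all 9 radial glia and astrocyte, all 9 endothelial and mural and all 7 dividing cell markers were lower. The count was 5 of 10 for microglia and macrophages and 0 of 8 for interneurons, where 10.5% of all genes were lower. It was 5 of 7 for the oligodendrocyte lineage, 5 of 5 for erythroid cells and 3 of 3 for fibroblasts and meninges. Of the projection neuron markers, 3 of 9 were higher, where 4.9% of all genes were higher. No marker of these lists had a mean of 0 CPM in the sorted cells. Ctrl replicate 1, with the highest Tnfrsf10b, also had the highest endothelial and mural sum, 1193 CPM against at most 484 CPM in any other library. Ctrl replicate 3, with the highest Birc3, had the highest sum for microglia and macrophages, 341 CPM. Ctrl replicate 5, with the lowest Birc3 of the Ctrl libraries, had the next highest of these sums, 194 CPM. Ctrl replicates 1 and 3, both male, had more Casp8, Birc3 and Cdkn1a than every other library, and higher endothelial and mural sums (1193 and 484 CPM). Ctrl replicate 4 had the lowest Casp8 of the Ctrl libraries. Its endothelial and mural sum was the lowest in Ctrl (189 CPM), but its dividing cell sum was the highest of all libraries (149 CPM). Cdk7_KO replicate 4 had the lowest value of the 10 libraries for 13 of the 39 genes (33.3%), against 23.2% of all genes tested. The part of other cells in these differences was not tested.

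**Figure D3:**
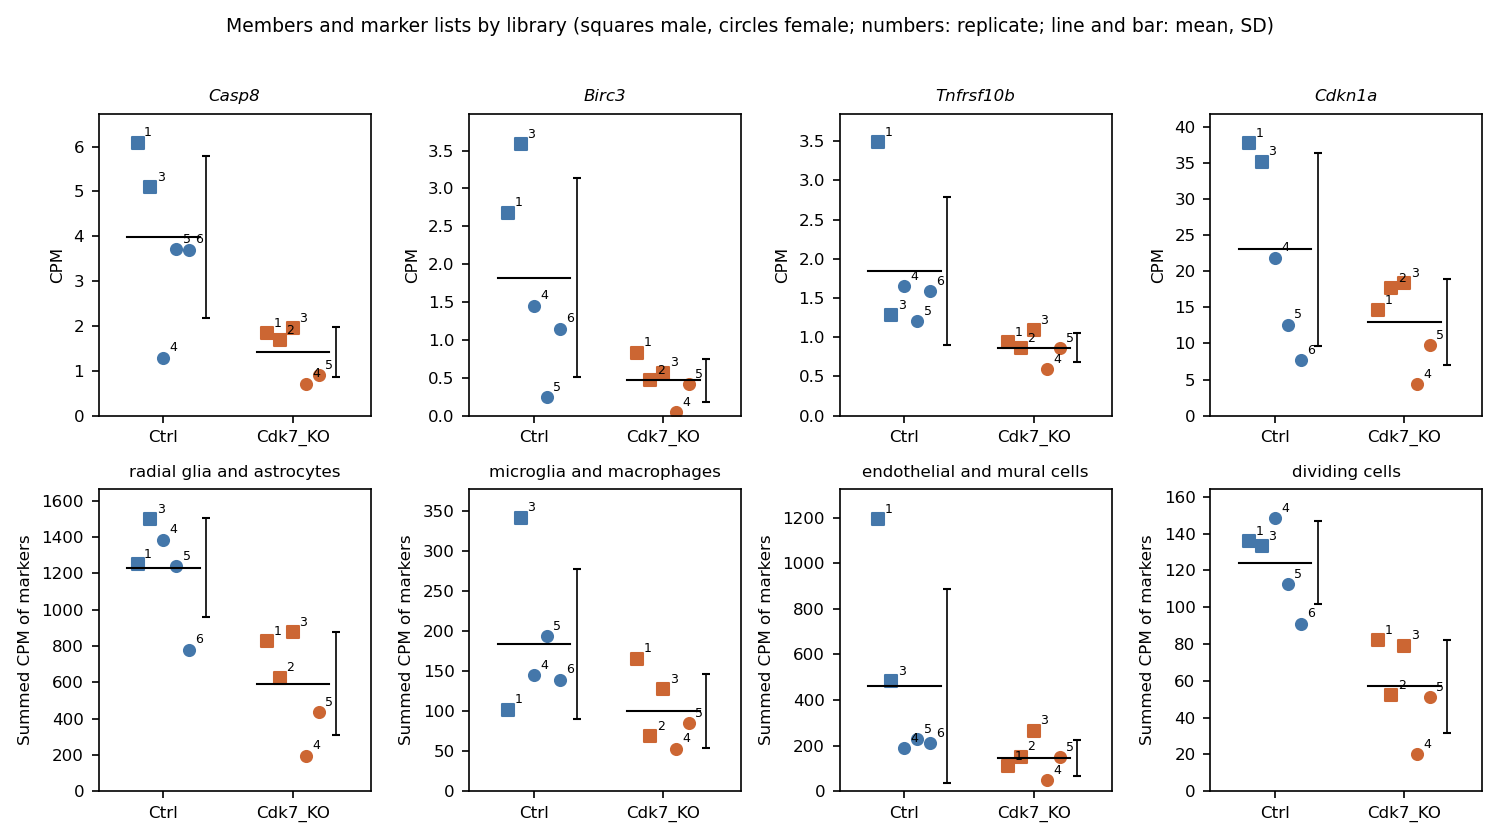
CPM of Casp8, Birc3, Tnfrsf10b and Cdkn1a (top) and summed CPM of the markers of 4 other cell types (bottom) in each library, Ctrl in blue and Cdk7_KO in orange, squares male and circles female, numbered by replicate, with the mean as a line and the SD as a bar (n = 5). Tnfrsf10b in Ctrl replicate 1 (3.49 CPM) and the endothelial and mural sum in the same library (1193 CPM) stand above all others, and Cdk7_KO replicate 4 lies lowest in each marker panel.

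Sex was added to the model, after the data had been seen, because the male and female libraries were spread unevenly over the genotypes. With sex as a factor, edgeR called 3 of the 39 genes lower in Cdk7_KO, where it called 4.4% of all genes lower, and 0 higher, against 0.295%. Casp8 had a log2 fold change of -1.67 (edgeR adjusted p = 0.0141), Birc3 of -2.15 (adjusted p = 0.0446) and Cdkn1a of -0.997 (adjusted p = 0.0465). With the level of Xist as covariate in place of sex, edgeR called Casp8, Birc3 and Cdkn1a lower (4.46% of all genes lower, 0.327% higher). With sex in the model and each library left out in turn, Casp8 was called in all 10 fits (edgeR adjusted p from 0.0180 to 0.0417). Of all genes, 1.6% to 4.66% were called in these fits. Birc3 was called in 2 of 10 fits, those without Ctrl replicate 5 and without Cdk7_KO replicate 5 (edgeR adjusted p up to 0.117). Cdkn1a was likewise called in 2 of 10, those without Ctrl replicate 6 and without Cdk7_KO replicate 5 (edgeR adjusted p up to 0.123). The calls of Birc3 and Cdkn1a were lost without each of the other 8 libraries.

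Within each sex, Casp8 had log2 fold changes of -1.60 in male and -1.75 in female libraries, and Cdkn1a of -1.10 and -0.89. Male Ctrl libraries averaged 36.5 CPM of Cdkn1a and male Cdk7_KO libraries 16.9 CPM, while female Ctrl libraries averaged 14.1 CPM and female Cdk7_KO libraries 7.06 CPM. Birc3 gave -2.30 in male and -1.95 in female libraries, and Tnfrsf10b -1.29 and -0.93. edgeR called 0 genes at an adjusted p under 0.05 within either sex. All 4 genes had the lower level in Cdk7_KO in both sets of libraries. They were picked by their difference over these same libraries, so the shared direction is no separate support.

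The interaction of genotype and sex had an unadjusted p under 0.05 for 7 of the 39 genes, against 7.34% of all genes, and an adjusted p under 0.05 for 0 (edgeR, smallest adjusted p among the 39 = 0.665). Trp53inp1 had a log2 fold change of 0.28 in male and -0.47 in female libraries, and Zmat3 of 0.25 and -0.37. Birc2 (0.30 and -0.24), Casp2 (0.27 and -0.21) and Mdm2 (0.20 and -0.09) had the same signs. Bok had the opposite ones, -0.25 in male and 0.39 in female libraries, as did Bbc3, -0.17 and 0.15. Of the 39 genes, 13 had a value above 0 in male and below 0 in female libraries, and 5 had the reverse. These differences between the sets of libraries did not pass the correction.

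**Figure D4:**
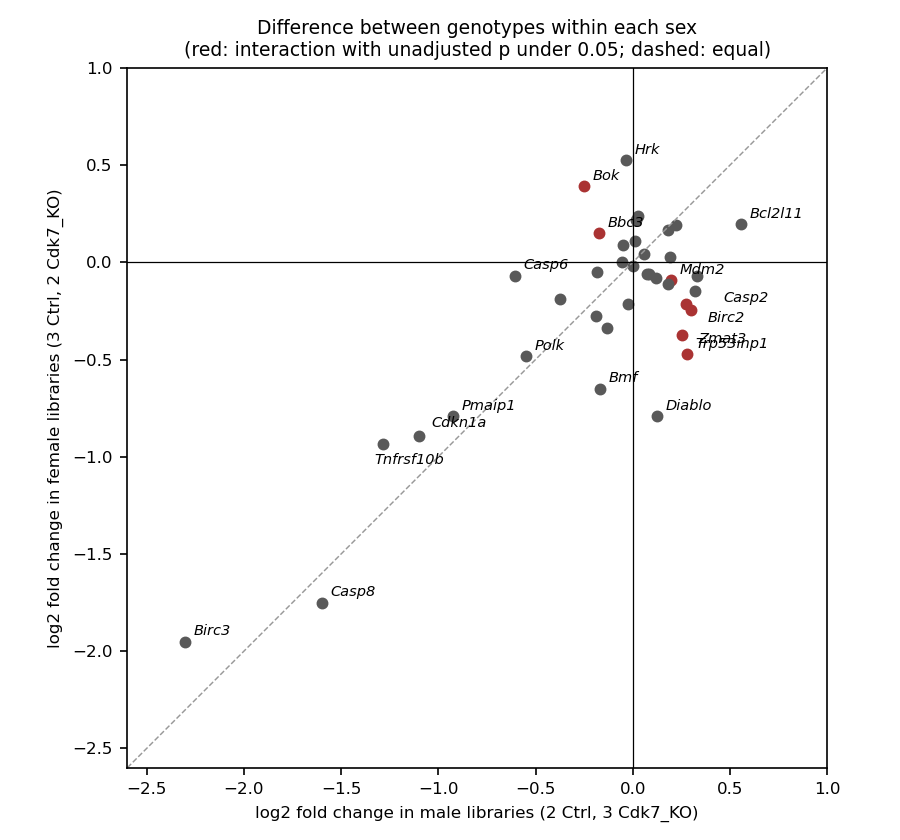
Log2 fold change of Cdk7_KO over Ctrl in the female libraries (y axis; 3 Ctrl, 2 Cdk7_KO) against that in the male libraries (x axis; 2 Ctrl, 3 Cdk7_KO) for the 39 genes, with the line of equal values dashed and genes with an unadjusted interaction p under 0.05 in red. Birc3, Casp8, Tnfrsf10b and Cdkn1a lie at the lower left in both sets, and the 7 red genes lie in quadrants of opposite sign.

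A further 72 genes of the same pathways, in 6 lists, were looked at beside the 41, and 61 were tested. edgeR called 0 of them at an adjusted p under 0.05, and at an unadjusted p under 0.05, 4 were lower and 4 higher, beside the same 10.5% and 4.9% of all genes. Their median log2 fold change was -0.06. Birc5 encodes survivin, an inhibitor of apoptosis that dividing cells need for mitosis. Birc5 stood at 6.38, 5.63, 4.08, 4.59 and 3.74 CPM in Ctrl and at 3.26, 2.19, 3.57, 0.883 and 1.56 CPM in Cdk7_KO, without overlap (log2 fold change -1.05, SE 0.33, edgeR adjusted p = 0.187, DESeq2 adjusted p = 0.0404). The marker sum of dividing cells did not overlap between the groups either, and its part in the Birc5 difference was not tested.

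Gadd45a, a p53 target that responds to DNA damage, gave 3.79, 3.01, 3.51, 2.54 and 2.66 CPM in Ctrl and 1.87, 1.76, 2.19, 1.98 and 1.52 CPM in Cdk7_KO. These groups did not overlap (log2 fold change -0.68, SE 0.22, edgeR adjusted p = 0.187, DESeq2 adjusted p = 0.0775). Tnfrsf1a, the main receptor for tumour necrosis factor, averaged 15.3 ± 3.0 CPM (SD, n = 5) in Ctrl and 11.2 ± 2.2 CPM (SD, n = 5) in Cdk7_KO (log2 fold change -0.40, edgeR adjusted p = 0.291). On the other side, Ddit4, a stress-induced brake on mTORC1, had a log2 fold change of 0.23 (edgeR adjusted p = 0.240). Endog, a mitochondrial nuclease, had 0.39 (edgeR adjusted p = 0.272), and Tradd, the adaptor of Tnfrsf1a, had 0.35 (edgeR adjusted p = 0.277).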

How the data were processed

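Counts per gene were deposited by the authors as whole numbers, not normalized. STAR and Salmon with GRCm38 were used per the submitters' processing notes; versions, roles, counter and strand setting were not given in the sources used here, so a gene and an overlapping antisense gene may share reads. RNA was polyA-selected and libraries directional, per the labels' protocols. All 10 count columns were matched to samples by name. No 2 libraries of a group were copies (smallest chi-square per gene 11.2). Nothing states separate litters, so p-values measure the spread between these libraries. Total counts of 23497621 to 31233466 leave large counting error at low levels.

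The 41 genes, the lists and the tests were chosen with earlier results of these data known. Counts were tested with edgeR 4.0.16 in R 4.3.3 (filterByExpr, minimum count 10; TMM; quasi-likelihood; genotype alone), with Benjamini-Hochberg adjustment over 15578 genes at 0.05. SEs come from the F statistic. Exon lengths are unions from GENCODE M21. Alternatives were DESeq2 1.42.0 (12037 adjusted p-values missing), limma 3.58.1 voom, other scalings and filters, each library left out, the replicate number, Xist and, added after seeing the data, sex. By rule, each role's gene of highest level per kb and the 2 of smallest p are given in every library; of other pathway genes, the 3 lower and 3 higher of smallest p are named. The tests were tried on simulated data.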

Additional observations from a re-analysis of the deposited data

Results flagged for a closer look

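Each gene's 5 libraries of a group were examined for a library far from the other 4. Of 78 such groups, 3 held one, where chance gives about 1 in 20. Bok stood at 70.6 CPM in Cdk7_KO replicate 5, far above the other 4 Cdk7_KO libraries. Bmf stood at 9.51 CPM in Ctrl replicate 5, far above the other 4 Ctrl libraries. Tnfrsf10b stood at 3.49 CPM in Ctrl replicate 1, the library that also had the highest sum of endothelial and mural markers.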

How the results depend on the processing

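Low counts and the spread between libraries limit what can be shown: 12 of the 39 intervals reach past a 1.5-fold change. The number of the 39 genes at an adjusted p under 0.05 was 0 in edgeR, 1 with DESeq2, 3 with Xist as covariate and 3 with sex as a factor. All of these were lower, where 3.32%, 4.46% and 4.4% of all genes were called lower with DESeq2, Xist and sex. The number lower at an unadjusted p under 0.05 was 3, beside 10.5% of all genes. It was 5 with the replicate block (11.4% of all genes), 6 with Xist (13.1%) and 6 with sex (13.1%). With a library left out it was 2 to 5, beside 8.27% to 11.3% of all genes. It was 5 without Ctrl replicate 6 or Cdk7_KO replicate 5. The number higher was 0, beside 4.9% of all genes. It was 2 with Xist (7.04% of all genes) and 2 with sex (6.98%), each time Trp53 and Apaf1. With sex, their log2 fold changes were 0.18 and 0.21 (edgeR adjusted p = 0.194 and 0.123). With a library left out the number higher was 0 to 1, beside 1.98% to 5.69% of all genes. It was 1 without Ctrl replicate 3 or 5, or Cdk7_KO replicate 3 or 5. Genes lower without overlap numbered 1 with all 10 libraries, beside 2.41% of all genes, and 1 to 3 with a library left out. The number was over 1 without Ctrl replicate 1, 3, 4 or 5, or Cdk7_KO replicate 1 or 5. Leaving out a library can only keep or raise it. The share over all genes was not counted for those sets, so the rise says nothing particular about these genes. Of the other pathway genes, 10 were lower with the replicate block, 9 with Xist, 9 with sex and 2 to 7 with a library left out. The shares of all genes in these settings are those given above. This number moved without Ctrl replicate 1, 3 or 6, or Cdk7_KO replicate 1 or 4. With library totals, 1 was higher, beside 2% of all genes. With a library left out, 1 to 5 were higher, beside the 1.98% to 5.69% given above. That number moved without Ctrl replicate 1, 4 or 5, or Cdk7_KO replicate 1, 4 or 5. Cdk7 passed with DESeq2 (-1.5406), without a filter (-1.5379), with Xist (-1.4141), with sex (-1.4318) and without Cdk7_KO replicate 1 (range over left-out libraries -1.6765 to -1.4356).

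Same-numbered libraries correlated at -0.10, 0.31, 0.14 and 0.17; not every pair was over 0.1 and no label ties the numbers, so the samples were not treated as paired, though same-numbered libraries are of the same sex. Genes close to 0 changed sign, and the cause was not tested. With library totals, which moved the median of all genes from 0.013 to -0.040, the log2 fold change was -0.055 for Mdm2, -0.016 for Mdm4, -0.048 for Perp, -0.011 for Rrm2b, -0.029 for Bbc3, -0.0034 for Bad, -0.042 for Casp9 and -0.00081 for Cradd. With the replicate block it was -0.027 for Mdm4, 0.036 for Phlda3, -0.015 for Bbc3, -0.0036 for Bad, 0.027 for Mcl1 and -0.043 for Casp2. A mean of at least 1 CPM gave -0.019 for Mdm2, -0.016 for Perp and -0.010 for Casp9. Voom gave -0.0083 for Perp and 0.011 for Birc2. With Xist, Bbc3 had -0.022, Birc2 0.045 and Fadd 0.023, and with sex -0.011, 0.029 and 0.014. With a library left out, values ran from -0.054 to 0.043 for Mdm2, -0.017 to 0.10 for Mdm4, -0.098 to 0.057 for Phlda3, -0.046 to 0.070 for Perp, -0.042 to 0.14 for Rrm2b, -0.019 to 0.17 for Bok, -0.023 to 0.11 for Bbc3, -0.0095 to 0.090 for Bcl2l1, -0.057 to 0.019 for Mcl1, -0.0062 to 0.16 for Casp2, -0.026 to 0.040 for Casp9, -0.076 to 0.082 for Birc2, -0.090 to 0.079 for Fadd and -0.059 to 0.19 for Cradd. The other 24 genes kept their sign in every setting tried.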
